A study of Rattus norvegicus with 24 samples.

Results

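The messenger RNAs of 34 chemokine ligands were followed through 24 samples of rat lung. The 34 were all the genes in the deposited table, of 30667 in all, whose symbols start with Ccl, Cxcl, Cx3cl or Xcl and a digit. Per the labels, the study set up a lung cancer model in rats with smoky coal, which gives off polycyclic aromatic hydrocarbons when it is burned indoors. Every sample carries the same protocol label, smoky coal, and the same tissue label, lung tissue. In the titles, the letters A, B, C and G are each combined with the numbers 1 to 6, so that every letter has 6 samples and every number has 4. The labels do not say what a letter or a number stands for, name no control, and give no strain, age, dose or exposure time. Nothing in them says that samples came from separate animals, so the p-values below measure only the spread between these samples. The groups below are therefore called by letter and by number alone.

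Chemokines are small secreted proteins that bind G protein-coupled receptors on leukocytes and draw those cells along a gradient. Some are made constantly and place resident and recirculating cells, while others are switched on by cytokines, microbial products or injury. In the lung, airway and alveolar epithelium, alveolar macrophages, endothelium and lymphocytes all make them. The ligands that carry an ELR motif, such as Cxcl1, attract neutrophils through Cxcr2. Ccl2 and Ccl7 attract monocytes through Ccr2, Ccl5 attracts T cells and monocytes, and the interferon-induced Cxcl9, Cxcl10 and Cxcl11 attract activated T cells through Cxcr3. Ccl11 and Ccl24 attract eosinophils through Ccr3.

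By their known targets, the 34 were sorted into 6 classes. Neutrophil attractants were Cxcl1, Cxcl2, Cxcl3, Cxcl5 and Cxcl15. Monocyte and macrophage attractants were Ccl2, Ccl3, Ccl4, Ccl6, Ccl7, Ccl9, Ccl12 and Cx3cl1. Attractants of effector lymphocytes were Ccl1, Ccl5, Ccl17, Ccl20, Ccl22, Cxcl9, Cxcl10, Cxcl11, Cxcl16 and Xcl1. Homeostatic lymphoid ligands were Ccl19, Ccl21a, Ccl25, Cxcl12 and Cxcl13, eosinophil attractants were Ccl11 and Ccl24, and mucosal or epithelial ligands were Ccl27a, Ccl28, Cxcl14 and Cxcl17. Symbols of 30 members matched a rat gene in RefSeq. Cxcl5 matched only as another name of rat Cxcl6, and Cxcl15, Ccl21a and Ccl27a had no match. The submitters' processing notes name a mouse assembly, GRCm38, although the samples are from rat, and how rat reads were given to these gene models is not given in the sources used here. Ligands with close paralogs (Cxcl1, Cxcl2 and Cxcl3, Ccl3 and Ccl4, or Ccl2, Ccl7 and Ccl12) could share reads under such counting, which was not tested.

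Many of these genes lie side by side in the rat genome. In the order of protein-coding genes of the RefSeq annotation of GRCr8, Ccl2, Ccl7, Ccl11, Ccl12 and Ccl1 follow each other on chromosome 10, and so, farther along, do Ccl5, Ccl9, Ccl6, Ccl3 and Ccl4. Cxcl11, Cxcl10 and Cxcl9 follow each other on chromosome 14, and Ccl17, Cx3cl1 and Ccl22 on chromosome 19. Promoter sequences were available for 24 of the 34 members. The 4 printed here are those that held a match to GGGA and TTCC with any 2 bases between them, a form of the kappaB site bound by NF-kappaB, and all 4 belong to genes that were higher in the samples numbered 2, as were 20 of the 34 members (58.8%). Each runs 5′ to 3′ over the 250 bases before the annotated start of transcription (RefSeq, GRCr8). Capitals mark this kappaB form on either strand, the interferon-response form (GAAA, any 2 bases, GAAA) and the AP-1 form (TGANTCA), and adjoining or overlapping matches run together.
Ccl7 (chr10:67513845-67514094, plus strand): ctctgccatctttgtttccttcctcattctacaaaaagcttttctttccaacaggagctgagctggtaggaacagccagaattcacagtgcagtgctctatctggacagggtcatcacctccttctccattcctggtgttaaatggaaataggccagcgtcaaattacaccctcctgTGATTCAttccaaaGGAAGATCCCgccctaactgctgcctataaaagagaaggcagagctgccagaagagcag
Cxcl1 (chr14:17479322-17479571, minus strand): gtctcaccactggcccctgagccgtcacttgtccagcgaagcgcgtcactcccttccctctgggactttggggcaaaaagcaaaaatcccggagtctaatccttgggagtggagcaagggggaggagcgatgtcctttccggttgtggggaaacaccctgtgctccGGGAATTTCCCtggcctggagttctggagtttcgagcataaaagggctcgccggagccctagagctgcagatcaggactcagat
Cxcl10 (chr14:15988816-15989065, plus strand): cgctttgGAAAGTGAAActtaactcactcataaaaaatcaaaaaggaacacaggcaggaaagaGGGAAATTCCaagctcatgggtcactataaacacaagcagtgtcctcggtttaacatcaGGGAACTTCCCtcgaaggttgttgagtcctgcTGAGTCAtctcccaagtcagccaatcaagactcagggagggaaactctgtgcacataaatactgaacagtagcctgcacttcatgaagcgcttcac
Cxcl11 (chr14:15973478-15973727, plus strand): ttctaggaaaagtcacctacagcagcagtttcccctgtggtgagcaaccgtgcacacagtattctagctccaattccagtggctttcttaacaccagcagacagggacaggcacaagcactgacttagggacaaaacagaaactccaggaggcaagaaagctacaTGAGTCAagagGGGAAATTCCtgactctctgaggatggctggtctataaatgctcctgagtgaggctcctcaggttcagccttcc
The kappaB form was found in 4 of the 24 member promoters and in 1.08% of all 33469 promoters of the same length, searched on both strands. Cxcl10 held 3 such matches, of which 2 overlapped, and Cxcl1 held 2 that overlapped. The interferon-response form was found in Cxcl10 and Ccl19 among members and in 3.41% of all promoters. The AP-1 form was found in Ccl7, Cxcl10, Cxcl11 and Cxcl14 and in 6.34% of all promoters. These are matches of letters in a window and show no binding.

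Values are the authors' adjusted read counts, which summed to between 61717516 and 66007148 per sample. They are not divided by gene length, so levels are compared only within a gene. The lung epithelial markers were high in every sample, with summed values of at least 1678324. A4 stood apart with a summed value of 16749 for markers of squamous epithelium, against at most 935 in the other samples, and A4 and B4 stood apart with 70585 and 15960 for skeletal muscle markers. Without A4 and B4, no count of members at an adjusted p under 0.05 moved by more than 1.5 times. In whole tissue, fewer cells of a type and less RNA per cell cannot be told apart.

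No chemokine ligand passed the test between the letters in a fit that did not use the number. On log2(value + 1), the F test of limma over the 4 letters passed 0 of 34 members at an adjusted p under 0.05, against 0.00652% of all genes, and 1 member had an unadjusted p under 0.05, against 3.91% of all genes. That member was Ccl21a, a ligand of Ccr7 that leads naive T cells and dendritic cells into lymphoid tissue (adjusted p = 1 by limma). Its mean level was 463 ± 70.2 for letter A, 435 ± 47.2 for B, 432 ± 38.2 for C and 521 ± 33.2 for G (SD over 6 samples each). The 6 samples of G lay between 490 and 576, and those of C between 378 and 470, so these groups did not overlap. Ccl21a was the only member with such a separation in any of the 6 pairs of letters, and 0.271% of all genes were separated between G and C. In the other pairs, where 0 members were separated, the share of all genes was 0.111% for B against A, 0.108% for C against A, 0.0880% for C against B, 0.466% for G against A and 0.176% for G against B.

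None of the 6 pairs of letters had a member that passed in the limma fit without the number. Of all genes, 0% passed in the pairs among A, B and C, 0.00652% between G and A and between G and C, and 0.00326% between G and B. At an unadjusted p under 0.05, there were 0 members in the pairs among A, B and C (3.58% of all genes for B against A, 2.98% for C against A and 1.82% for C against B), 5 members between G and A (14.7%, against 8.15% of all genes), 1 between G and B (3.67% of all genes) and 4 between G and C (4.03% of all genes). In B against A and C against B, all 6 same-numbered pairs of samples deviated together. There, a fit with the number as a replicate block also passed 0 members (0% of all genes), with 8 and 1 at an unadjusted p under 0.05. The share of all genes at that unadjusted threshold was not counted for this fit. The same fit passed 4 members for G against A (11.8%, against 1.27% of all genes) and 1 for G against C (2.94%, against 0.0359%). It passed 0 for C against A (0% of all genes) and G against B (0.00652% of all genes). In these other pairs of letters, not every same-numbered pair deviated together. Ccl5, a strong attractant of T cells, had its highest mean in G (4483 ± 1612), against 3241 ± 890 in A, 3424 ± 1078 in B and 3122 ± 818 in C. The ranges overlapped, from 2621 to 7225 in G and from 2200 to 5403 in the other letters. In the fit without the number, the difference between G and A was 0.44 on the log2 scale (SE 0.22, adjusted p = 0.626 by limma). With the number as a block, the adjusted p of this difference was 0.0188 by limma. For Ccl12, a ligand of Ccr2, mean and median lay far apart. Its mean was 79.8 ± 173 in A and 2.01 ± 1.71 in G, while the medians were 13.2 and 1.47, and A2 alone had 433.

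**Figure D1:**
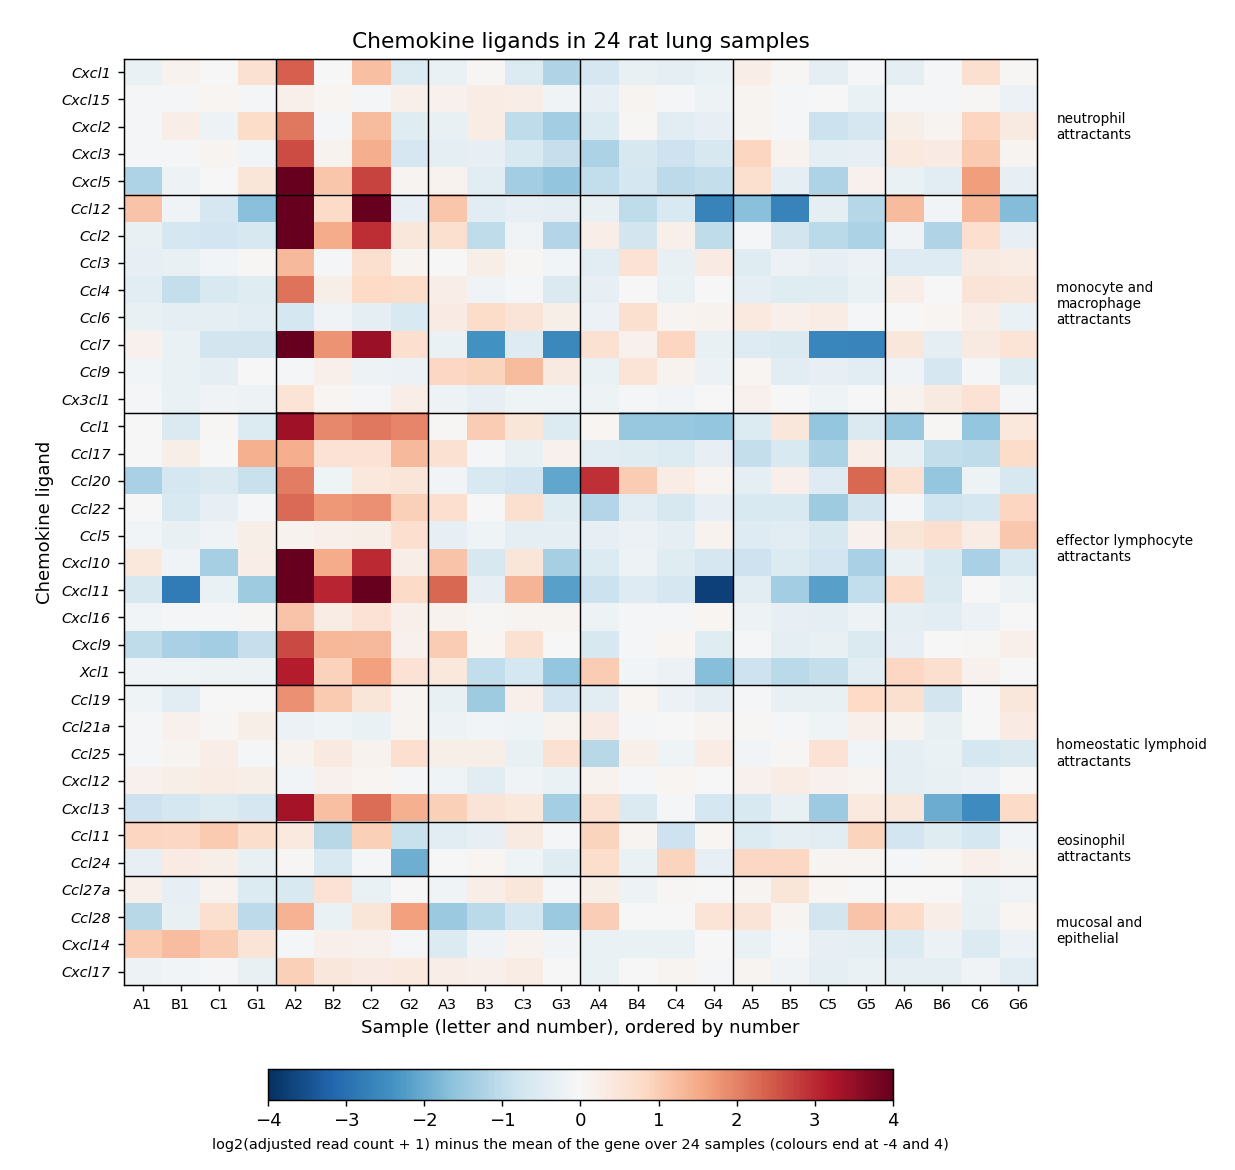
Heat map of the 34 ligands (rows, ordered by class) in the 24 samples (columns, ordered by number and then letter), coloured by the distance of log2(value + 1) from that gene's average in all 24 samples, with colours ending at -4 and 4. The columns numbered 2 hold most of the high values, with the highest in A2, and Cxcl14 stands out in the columns numbered 1.

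More members passed the test over the numbers in the sample titles than the test over the letters, which did not use the number. In a limma F test over the 6 numbers, with the letter as a term, 24 of 34 members passed (70.6%), against 31.5% of all genes. All 10 attractants of effector lymphocytes passed, as did 7 of 8 monocyte and macrophage attractants and 3 of 4 mucosal ligands. Only 2 of 5 neutrophil attractants and 2 of 5 homeostatic lymphoid ligands passed, and 0 of the 2 eosinophil attractants did. The smallest p-values belonged to Ccl5 (adjusted p = 5.61e-06) and Cxcl14 (adjusted p = 6.54e-06). Of 23 chemokine receptors and decoy receptors in the table, 19 passed, and of 12 cytokines known to induce chemokines, 5 passed. The platelet chemokines Pf4 and Ppbp, whose symbols fall outside the naming rule, did not pass.

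**Figure D2:**
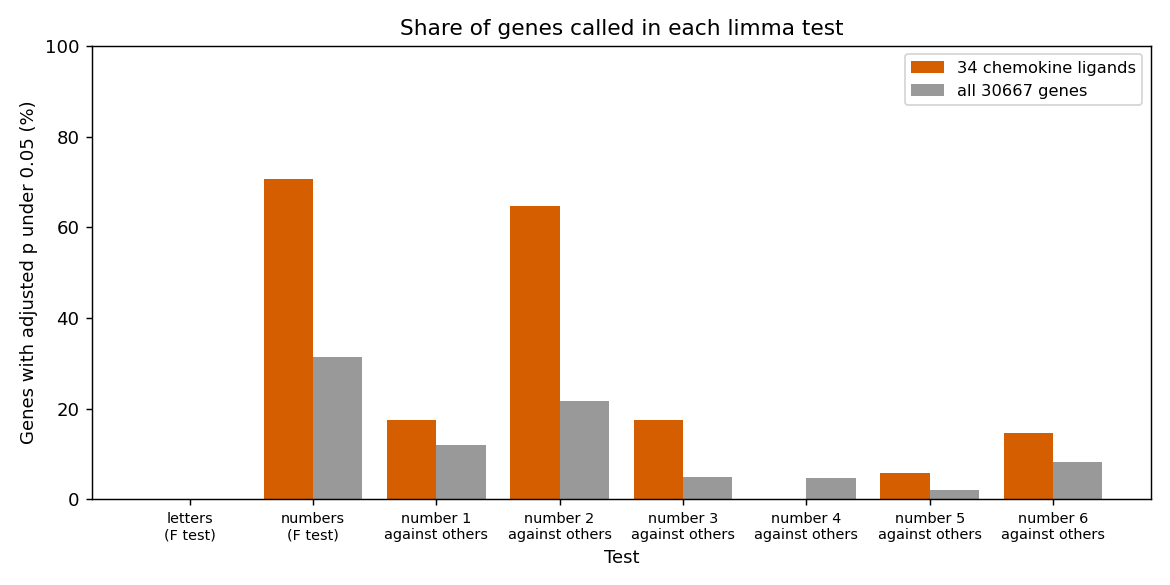
Bars show the percentage of the 34 chemokine ligands (orange) and of all 30667 genes (grey) with an adjusted p under 0.05 in each limma test. The ligands reach 70.6% over the numbers and 64.7% for number 2, and 0% over the letters.

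The samples numbered 2 carried the widest change. Against the mean of the other 5 numbers, 20 members were higher and 2 were lower, so that 64.7% of members passed, against 21.8% of all genes. Higher calls made up 58.8% of members and 11.5% of all genes, and lower calls 5.88% and 10.3%. The median difference was 0.88 on the log2 scale over the 34 members and 0.01 over all genes. Of the classes, 9 of 10 effector lymphocyte attractants, 5 of 8 monocyte and macrophage attractants, 3 of 5 neutrophil attractants, 2 of 5 homeostatic ligands and 1 of 4 mucosal ligands were higher. The 2 that were lower were Ccl6 and Ccl24.

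The interferon-induced ligands of Cxcr3 were all higher, and Cxcl11 had the largest difference of the 34 members. Cxcl11 had 983 in A2, 109 in B2, 333 in C2 and 21.8 in G2, against 0.01 to 64.2 in the other 20 samples. A2, B2 and C2 stood above every sample of another number, and G2 fell within their range. The difference was 4.40 on the log2 scale (SE 0.56, adjusted p = 1.81e-05), a 21.1-fold rise. Cxcl10, chosen after its values were seen, had 832, 98.5, 277 and 41.8 in A2, B2, C2 and G2, against 13.0 to 77.2 elsewhere, and differed by 2.79 (SE 0.43, adjusted p = 0.00011). Cxcl9 had 3685, 1496, 1457 and 668, against 223 to 1198, and differed by 1.64 (SE 0.24, adjusted p = 5.97e-05). All 3 genes thus had A2 as their highest sample and G2 as the lowest of the samples numbered 2.

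The ligands of Ccr2 rose with them. Ccl2, chosen after its values were seen, had 3446 in A2, 393 in B2, 1098 in C2 and 193 in G2, against 57.9 to 226 in the other 20 samples. Only G2 overlapped the rest, and the difference was 2.84 (SE 0.33, adjusted p = 6.94e-06). Its neighbour Ccl7 had 1743, 146, 464 and 65.8, against 5.70 to 76.0, with a difference of 3.40 (SE 0.45, adjusted p = 2.52e-05). Ccl12 had 433 in A2 and 149 in C2 but 9.93 in B2 and 4.15 in G2, within the range of 0.00 to 15.3 elsewhere. A2 and C2 alone lay above the other samples, and the difference was 3.31 (SE 0.59, adjusted p = 0.000405).

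**Figure D3:**
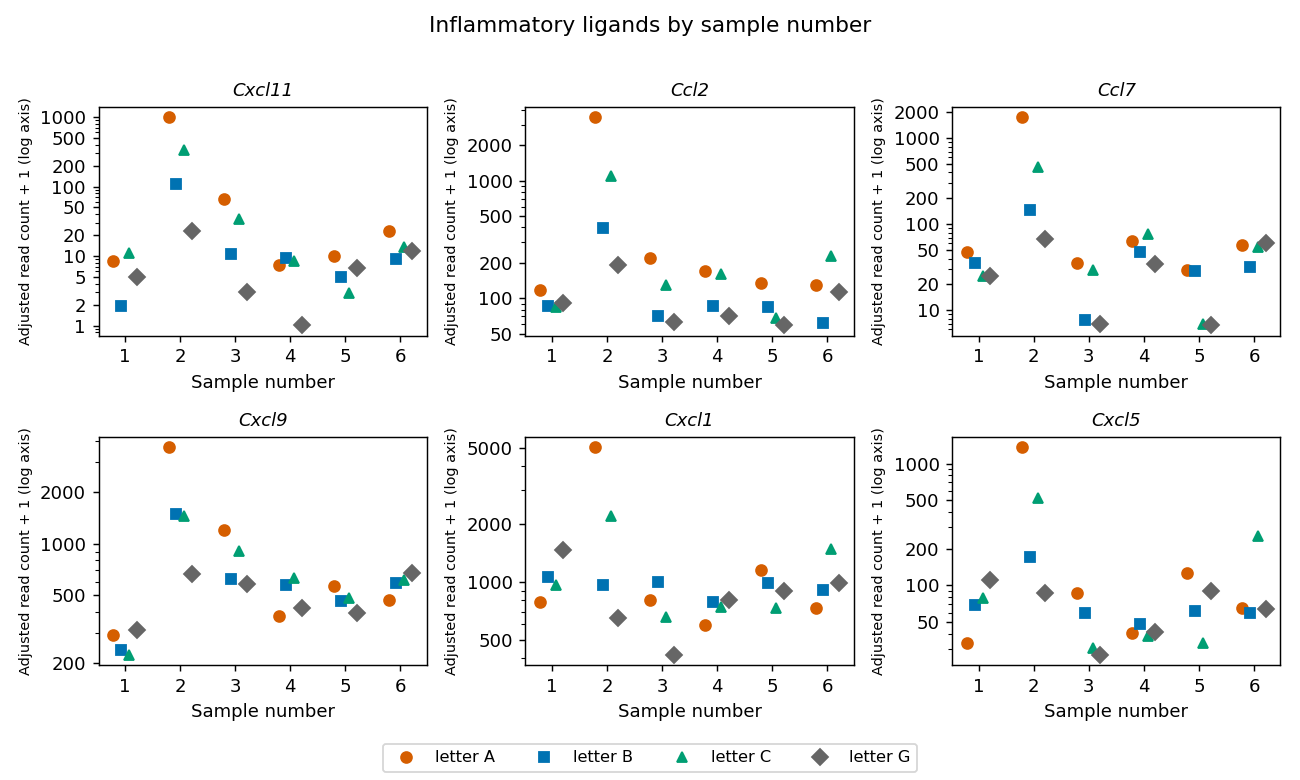
Adjusted read count plus 1 (log axis) of 6 ligands by sample number, with 1 point per sample and a symbol per letter. A2 and C2 are the highest points for Cxcl11, Ccl2, Ccl7, Cxcl1 and Cxcl5, while B2 and G2 lie among the other samples for Cxcl1.

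Ccl11, the eosinophil attractant eotaxin that lies between Ccl7 and Ccl12, did not pass with number 2. Its 4 values there were 217, 76.6, 319 and 89.3, against 93.6 to 343 in the other samples. Ccl4, an attractant of monocytes and T cells, had 980, 256, 379 and 359, against 112 to 312, and differed by 1.18 (SE 0.19, adjusted p = 0.00015). Ccl6, a macrophage-derived ligand of Ccr1 from the same run of genes, went the other way, with 7394, 10774, 9224 and 7851 against 8817 to 20004, a difference of -0.55 (SE 0.09, adjusted p = 0.000289). The eosinophil attractant Ccl24 had 66.0, 41.8, 61.7 and 15.9, against 44.9 to 120, and differed by -0.77 (SE 0.23, adjusted p = 0.0199). A2 and C2 lay within that range. That call was lost without B2 or without G2, with an adjusted p of up to 0.189. Ccl3, a macrophage inflammatory protein like Ccl4, had 1207, 480, 766 and 530, against 344 to 731, and rose by 0.60 (SE 0.20, adjusted p = 0.0362), a call that was lost without A2 or without C2 (adjusted p of up to 0.430).

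Of the 34 members, 5 had their 4 samples numbered 2 above the other 20, namely Ccl1, Ccl22, Cxcl13, Cxcl16 and Cxcl17 (14.7% of members, against 1.11% of all genes). Ccl22, a ligand of Ccr4 on Th2 and regulatory T cells, had 193, 134, 143 and 76.3, against at most 72 elsewhere. Cxcl13, which organises B cell follicles through Cxcr5, had 589, 134, 280 and 159, against at most 113. Cxcl16, the membrane-bound ligand of Cxcr6, had 5910, 3338, 4025 and 3072, against at most 2976, and differed by 0.66 (SE 0.10, adjusted p = 0.000116). Cxcl17, a mucosal ligand of airway epithelium, had 11056, 7838, 7231 and 7586, against at most 6986, and differed by 0.64 (SE 0.09, adjusted p = 3.03e-05). Ccl1 was low throughout, at 29.7, 9.96, 11.7 and 10.3, against at most 4.91. Xcl1, a ligand of Xcr1 on cross-presenting dendritic cells, had 202, 42.8, 71.6 and 33.4, against 6.07 to 45.7, and rose by 1.87 (SE 0.31). Ccl17, the other ligand of Ccr4, rose by 1.17 (SE 0.23), with 30.8 to 58.3 against 7.94 to 56.3. Ccl5 rose by 0.38 (SE 0.08), with 3721 to 5420. Ccl19, a ligand of Ccr7, had 64.2, 36.8, 25.1 and 18.9, against 5.84 to 31.0, and its rise of 1.04 (SE 0.29, adjusted p = 0.0139) was lost without A2 or without B2 (adjusted p of up to 0.153). Ccl20 did not pass. It was highest in A4 (645) and G5 (411), with 351 in A2.

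Of the 5 neutrophil attractants, 4 had their highest values in A2 and C2. Cxcl1 had 5043 in A2 and 2198 in C2, while B2 (964) and G2 (650) lay within the range of 416 to 1479 of the other 20 samples. The difference was 0.92 (SE 0.32, adjusted p = 0.0450), and dropping 1 sample at a time ended the call for 17 of the 24 samples, with an adjusted p of up to 0.512 and a difference of at least 0.33. Cxcl3 followed the same order, with 2487, 441, 1103 and 251 in A2, B2, C2 and G2, and its difference of 1.06 (SE 0.31, adjusted p = 0.0177) was lost without A2 or without C2 (adjusted p of up to 0.265). Cxcl5 had 1366, 171, 519 and 85.9, against 26.0 to 254 elsewhere, and differed by 2.41 (SE 0.49, adjusted p = 0.00134). Cxcl2 had 248 and 136 in A2 and C2 and 52.7 and 39.9 in B2 and G2, and its difference of 0.84 had an adjusted p of 0.0749. Cxcl15, a lung-restricted ligand in mouse, had 26085 to 31569 in the samples numbered 2 and 21761 to 33247 in the others.

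The same order of samples ran through most of the rise. Of the 20 members that were higher, 15 were highest in A2 and next in C2 among the samples numbered 2 (75%, against 48.9% of the 3527 genes that were higher there), and 13 were lowest in G2 (65.0%, against 43.3%). A2 was the highest of all 24 samples for 20 of 34 members (58.8%, against 17.7% of all genes). Relative to the other samples of its letter, A2 had 22 members more than 1 log2 unit higher, C2 had 16, B2 had 12 and G2 had 10. The share of all genes was not counted for this measure. The median deviation over the members was 1.69 in A2, 0.88 in C2, 0.40 in B2 and 0.48 in G2, against 0.01 over all genes in each.

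**Figure D4:**
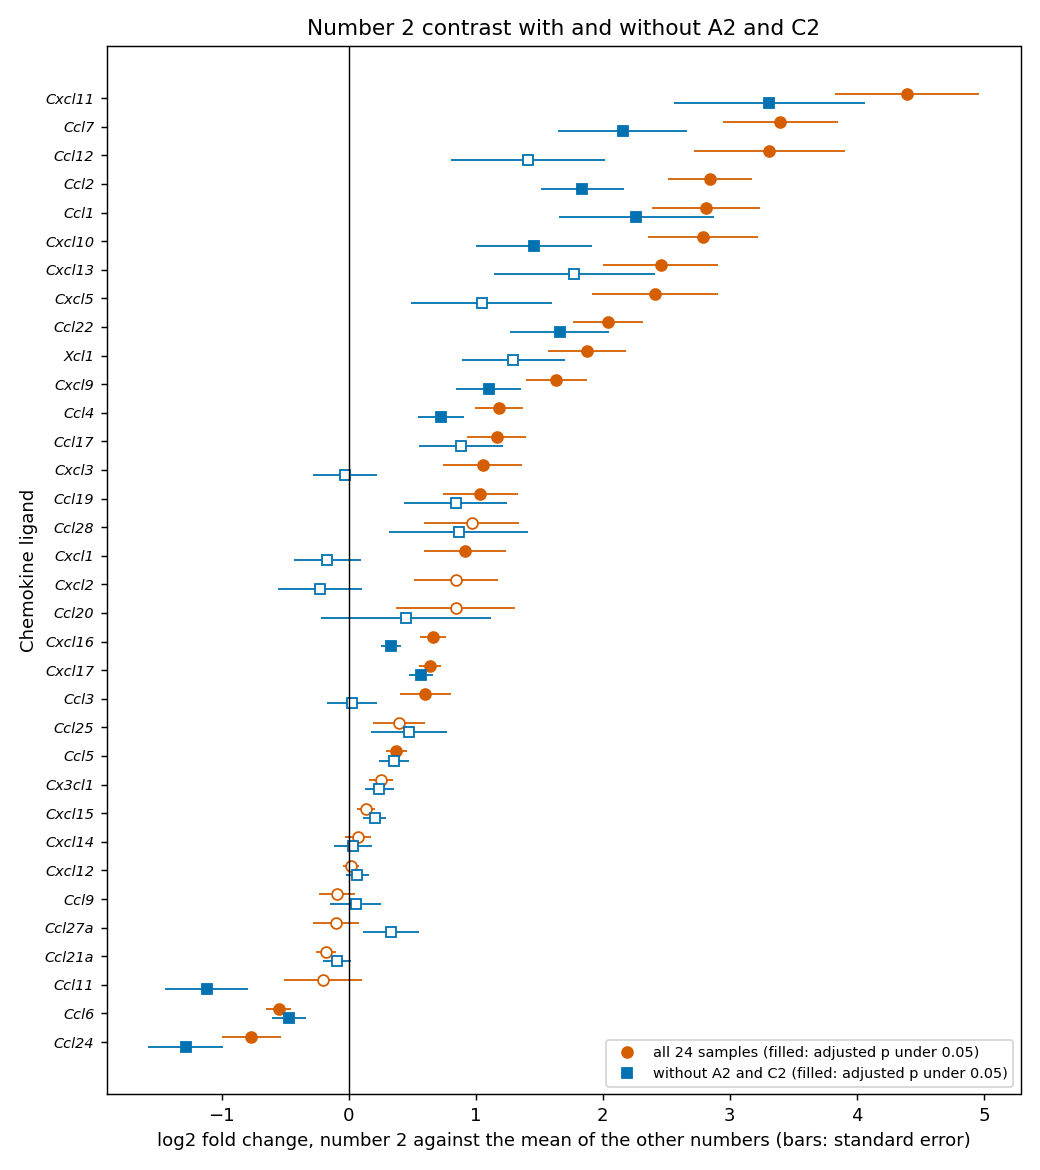
Difference of number 2 from the mean of the other numbers (log2) for each ligand, in all 24 samples (circles) and without A2 and C2 (squares), with bars for the standard error and filled points for an adjusted p under 0.05. Cxcl11, Ccl7, Ccl1 and Ccl2 stay above 1.5 in both, while Cxcl1, Cxcl3 and Ccl3 lie between -0.17 and 0.03 without A2 and C2.

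Because A2 and C2 held the highest values of most members that rose, the comparison was repeated without them, a choice made after the data were seen. Then 13 members passed (38.2%, against 9.60% of all genes), of which 10 were higher and 3 lower, and 12 of the 13 were also among the 22. Cxcl11 kept a difference of 3.31 (SE 0.75, adjusted p = 0.00764), Ccl7 of 2.16 (adjusted p = 0.0099) and Ccl2 of 1.84 (SE 0.33, adjusted p = 0.00116). Ccl22, Ccl1, Cxcl9, Cxcl10, Ccl4, Cxcl16 and Cxcl17 also stayed higher, and Ccl6 and Ccl24 lower. Ccl11 passed as well, at -1.12 (SE 0.33, adjusted p = 0.0356). The 3 neutrophil attractants that had passed no longer did. Their differences were -0.17 for Cxcl1 (adjusted p = 0.789), -0.03 for Cxcl3 (adjusted p = 0.963) and 1.05 for Cxcl5 (adjusted p = 0.291). Ccl3 (0.03), Ccl12 (1.41), Ccl17 (0.88), Ccl19 (0.84), Cxcl13 (1.78) and Xcl1 (1.29) did not pass either, with their differences in parentheses. Ccl5 did not pass (adjusted p = 0.0579), but its difference was 0.36 without A2 and C2, against 0.38 with them. With B2 and G2 alone, all 3 ligands of Cxcr3 and both Ccl2 and Ccl7 passed, and 0 of the 5 neutrophil attractants did. Of these, Cxcl2 and Cxcl15 had not passed with A2 and C2 included either. Since A2 and C2 were dropped for their high values, this describes B2 and G2 and does not test a difference between the classes.

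Receptors and inducing cytokines moved in the samples numbered 2 as well. Of 23 receptors, 10 were higher, among them Ccr2, Cx3cr1, Cxcr3, Cxcr6 and Xcr1, and 2 were lower (Ackr4 and Cxcr1). The share of all genes was 11.5% for higher calls and 10.3% for lower calls. Cxcr6 had 783 to 1283 in number 2 and 200 to 718 in the others, without overlap, and differed by 1.18 (SE 0.10, adjusted p = 1.46e-07). Cxcr3 reached 727 to 1472, against 219 to 746. The neutrophil receptor Cxcr2 differed by 0.92 but did not pass (adjusted p = 0.0521). Of 12 cytokines, Csf3, Ifng, Il17a, Il1b, Il6 and Tnf were higher and Il33 was lower. Il6 reached 401 in A2 and 167 in C2, against at most 17.5 in the samples of other numbers, and its lowest value in number 2 was 0.04.

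Marker genes of several cell types shifted in the same samples, and their part in these results was not tested. For comparison, 11.5% of all genes were higher in number 2 and 10.3% were lower. Of 8 T and NK cell markers, 7 were higher in number 2, and their summed values ran from 8307 to 15162, against 5493 to 12757 in the others. Of 8 monocyte and macrophage markers, 4 were higher (34053 to 39053, against 25224 to 57086). Of 8 neutrophil markers, 2 were higher (6183 to 35946, against 3104 to 17612). All 5 endothelial markers (153547 to 236254, against 206727 to 302777) and all 4 red blood cell markers (125019 to 235098, against 136407 to 1058225) were lower. Of 6 B and plasma cell markers, 1 was higher. Their summed values were 8267 in A2 and 7150 in C2, but 34557 in B2 and 73999 in G2, the highest of the 24 samples. Of the eosinophil markers, Siglecf passed the limma F test over the 6 numbers (adjusted p = 0.000181), which gives no direction and does not single out number 2. Epx, Il5ra, Prg2 and Prg3 did not pass this F test (adjusted p of 0.0741, 0.0519, 0.427 and 0.287). The eosinophil granule gene Prg3 and the macrophage receptor Marco were near 0 in every sample, at most 6 and 10.

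**Figure D5:**
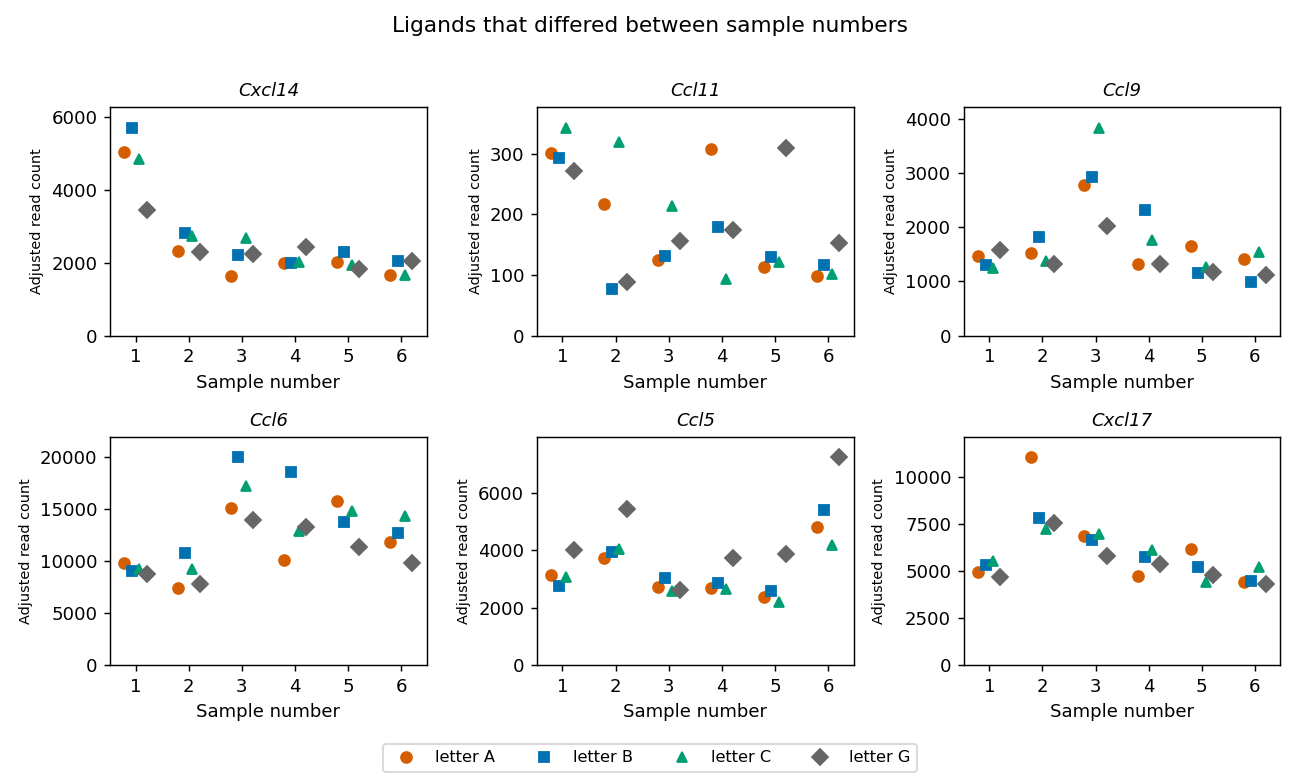
Adjusted read count of ligands that passed with a number other than 2, by sample number, with 1 point per sample and a symbol per letter. Cxcl14 is highest in the 4 samples numbered 1, Ccl9 is high in those numbered 3 and Ccl5 in those numbered 6.

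In the samples numbered 1, the epithelial ligand Cxcl14 was higher than anywhere else. It had 5064, 5715, 4859 and 3458 in A1, B1, C1 and G1, against 1650 to 2812 in the other 20 samples, and the groups did not overlap (1.35% of all genes lay wholly above in number 1). The difference was 1.14 (SE 0.10, adjusted p = 6.27e-07), and it passed in all 24 fits that left out 1 sample. In all, 6 members passed (17.6%, against 11.9% of all genes), of which 3 were higher (5.62% of all genes) and 3 lower (6.25% of all genes). Cxcl12, the stromal ligand of Cxcr4, was higher by 0.29 (SE 0.06, adjusted p = 0.00487), with 10537 to 11328, against 6893 to 11343. Ccl11 was higher by 1.02 (SE 0.31, adjusted p = 0.0324), with 271 to 343, against 76.6 to 319, but that call was lost without any 1 of the 4 samples numbered 1 (adjusted p of up to 0.136).

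Cxcl9 was the only member whose 4 samples numbered 1 lay below all others (2.94% of members, against 0.734% of all genes). It had 292, 239, 223 and 311, against 376 to 3685, and fell by 1.39 (SE 0.24, adjusted p = 0.000647). Ccl4 fell by 0.75 (SE 0.19, adjusted p = 0.0115), which was lost without A1 or without B1 (adjusted p of up to 0.0633). Ccl6 fell by 0.45 (SE 0.09, adjusted p = 0.00339), with 8817 to 9854. Of the 23 receptors, 11 were lower in number 1, among them Cxcr3 by 1.15 and Cxcr6 by 1.45 on the log2 scale, and 1 (Ccrl2) was higher. The share of all genes was 6.25% for lower calls and 5.62% for higher calls. The T cell markers Cd3d and Cd3e were lower too, 2 of 8 in their list, and the part of cell number in these values was not tested.

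The samples numbered 3 were set apart by the macrophage ligands Ccl9 and Ccl6. Ccl9 had 2778, 2931, 3830 and 2028, against 984 to 2316, and rose by 1.0 (SE 0.14, adjusted p = 0.000312). Ccl6, next to it on chromosome 10, had 15101, 20004, 17234 and 14016, against 7394 to 18604, and rose by 0.55 (SE 0.09, adjusted p = 0.0017). Their receptor Ccr1 rose by 0.93 (SE 0.15, adjusted p = 0.00104). Of 8 monocyte and macrophage markers, Mrc1 and Cd68 were higher, where 2.89% of all genes were. The summed values of the list were 46759 to 57086, against 25224 to 40407, without overlap. The part of macrophage number in these values was not tested.

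In all, 6 members passed in number 3 (17.6%, against 4.98% of all genes), of which 2 were higher (2.89% of all genes) and 4 lower (2.09% of all genes). Cxcl12 fell by 0.30 (SE 0.06, adjusted p = 0.00817), which was lost without B3 (adjusted p = 0.0849). Ccl7 fell by 1.73 (SE 0.45, adjusted p = 0.0277), with 34.1, 6.79, 28.6 and 5.99 in A3, B3, C3 and G3. Ccl28, a mucosal ligand of Ccr10, fell by 1.43 (SE 0.37, adjusted p = 0.0286), with 2.01, 2.91, 4.10 and 2.0. Ccl5 fell by 0.38 (SE 0.08, adjusted p = 0.00753). The falls of Ccl7 and Ccl5 are not independent of their rises in number 2, or of the rise of Ccl5 in number 6. Those samples are part of the mean of the other numbers. Ccl7 lost its call without A3, B3 or G3, Ccl28 without any 1 of the 4 samples and Ccl5 without G3 (adjusted p of up to 0.158, 0.148 and 0.0556). Without A4 and B4, Ccl28 had an adjusted p of 0.0506. The count of members that passed dropped from 6 to as few as 3, without B3 or without G3.

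In the samples numbered 6, Ccl5 was the ligand with the clearest rise. It had 4794, 5403, 4183 and 7225 in A6, B6, C6 and G6, against 2200 to 5420 in the other samples. The difference was 0.76 (SE 0.08, adjusted p = 2.2e-05), and it passed in all 24 fits that left out 1 sample. G6 was the highest of the 24 samples, followed by G2. In all, 5 members passed (14.7%, against 8.13% of all genes), of which 2 were higher (4.11% of all genes) and 3 lower (4.02% of all genes). Cxcl17 fell by 0.39 (adjusted p = 0.00825), Cxcl14 by 0.46 (adjusted p = 0.00836) and Cxcl12 by 0.28 (adjusted p = 0.0101). Cxcl17 was lost without A6 or B6, Cxcl14 without A6 or C6, and Cxcl12 without A6, B6 or C6, at adjusted p of up to 0.0745, 0.0663 and 0.0978. Cx3cl1, the membrane-bound ligand of Cx3cr1, rose by 0.30 (SE 0.09, adjusted p = 0.0464) and the call ended for 17 of the 24 samples when each was dropped in turn (adjusted p of up to 0.329).

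Lymphocyte markers were higher too in the samples numbered 6, where 4.11% of all genes were higher. Of 8 T and NK cell markers, 5 passed (summed values of 7638 to 12757, against 5493 to 15162), and of 6 B and plasma cell markers, 4 passed (20078 to 26853, against 4635 to 73999). Of 23 receptors, 7 were higher and 0 lower, with Ccr7 and Cxcr5 among them. Their ligands Ccl19, Ccl21a and Cxcl13 did not pass. The part of lymphocyte number in the Ccl5 values was not tested. Leaving out single samples moved the count of members that passed from 5 to between 1 and 7, with the lowest counts without A6, B6 or C6.

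Few ligands passed in numbers 4 and 5. In number 4, 0 of 34 members passed in limma, against 4.74% of all genes, and 10 had an unadjusted p under 0.05 (29.4%, against 19.4% of all genes). Without A4 and B4, which stood apart by their squamous and muscle markers, 2 members had an unadjusted p under 0.05, 0 passed and 0.0457% of all genes passed. The count of members that passed rose to 1 or 2 without A2, A6, B2, G2, G3, G4 or G5. Ccl20, an attractant of Ccr6-bearing cells in inflamed epithelium, had 645, 171, 104 and 90.8, and its difference of 1.32 (SE 0.47) had an adjusted p of 0.113. A4, with the highest value, was also the sample with the high squamous markers. In number 5, 2 members passed (5.88%, against 1.97% of all genes), both lower (1.09% of all genes). Ccl5 fell by 0.41 (SE 0.08, adjusted p = 0.0185) and Ccl7 by 1.90 (SE 0.45, adjusted p = 0.0348). Ccl5 had 2383, 2568, 2200 and 3871 in A5, B5, C5 and G5. The mean of the other numbers holds number 2, where both genes were higher, and number 6, where Ccl5 was. These falls are therefore not independent of those rises. Both calls were lost without A5, B5 or C5, and that of Ccl7 also without G5, at adjusted p of up to 0.108 and 0.223. The count of members that passed moved to between 0 and 5, by over 1.5 times without A4, A5, B5, C5, G2, G5 or G6.

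Ccl25, Ccl27a, Ccl21a, Cxcl2, Cxcl15 and Ccl20 passed in none of the comparisons of a single number with the rest. Ccl27a, a ligand of Ccr10 made by skin and other epithelia, stayed between 28.5 and 66.6 in all 24 samples. Ccl25, a ligand of Ccr9 made in thymus and gut, stayed between 13.6 and 49.2.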

How the data were processed

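Messenger RNA of 24 rat lung samples was sequenced on an Illumina platform, per the labels. The authors deposited 1 table of signal values, from their form adjusted read counts per gene, for 30667 genes. STAR and the mouse assembly GRCm38 are named in the submitters' processing notes with no version or role, and the adjustment is not given in the sources used here. Values between 0.5 and 1.5 took from 195 to 996 different values in a sample, so whole reads could not be recovered, count models were not used and the depth in reads is unknown.

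Values were tested as log2(value + 1) with limma 3.58.1 in R 4.3.3, with a trend in the prior variance, Benjamini-Hochberg adjustment over all genes and a threshold of 0.05. All 30667 genes had a mean of at least 0.5. A fold on this scale understates the change of low genes. Letters were compared by 4 means, and numbers with the letter as a term, each against the mean of the other 5. A rise in a single number thus enters the contrasts of the other 5 with the opposite sign. The fit was checked on simulated data in which the numbers differed only for genes changed on purpose. That check does not cover the letter fit where numbers differ for many genes.

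All 6 same-numbered pairs of samples deviated together (correlation over 0.1, over 21922 genes) for B against A (r 0.17 to 0.59) and C against B (r 0.13 to 0.60). In C against A and G against B, 5 of the 6 pairs did, and in G against A and G against C, 4 did. This comes from the data and not from a label. The letter fits leave the number out, and the fit with it as a block is given beside them. The named genes were, per class, the 3 with the highest mean and the smallest p over letters and over numbers, and, per number, the 3 largest changes in each direction. Values of Ccl1, Ccl2, Ccl3, Ccl19, Ccl20, Ccl22, Ccl25, Cxcl2, Cxcl10 and Xcl1 were given outside this rule. The members and all lists were chosen with earlier results of these data known. Alternatives were another pseudocount, quantile and 75th percentile scaling, a minimum mean of 10, array quality weights, a replicate block, only the 12 samples of a pair, no letter term, and leaving out samples.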

Additional observations from a re-analysis of the deposited data

Results flagged for a closer look

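Within each letter, the sample farthest from the other 5 was compared with Dixon's critical value for 6 samples for the 24 named members, which gave 96 groups. Chance picks about 1 in 20 of groups chosen at random, or 4.8 of 96. Since these members were named partly for their change with a number, that value does not apply to them and 29 picked groups, 19 of them in a sample numbered 2, are a description. In A2 the high values were 433 for Ccl12, 980 for Ccl4, 1743 for Ccl7, 5043 for Cxcl1, 983 for Cxcl11, 589 for Cxcl13, 5910 for Cxcl16, 11056 for Cxcl17, 2487 for Cxcl3, 1366 for Cxcl5 and 3685 for Cxcl9. In B2 they were 146 for Ccl7, 109 for Cxcl11, 171 for Cxcl5 and 1496 for Cxcl9. In C2 they were 149 for Ccl12, 464 for Ccl7, 333 for Cxcl11 and 280 for Cxcl13. None was in G2.

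Cxcl14 stood apart in number 1 of every letter, with 5064 in A1, 5715 in B1, 4859 in C1 and 3458 in G1. Ccl9 stood apart in A3 (2778) and C3 (3830), and Cxcl15 in C3 (32774). Single values were Ccl24 in C4 (120.4), Cx3cl1 in C6 (4951) and a low Ccl27a in G1 (30.2).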

How the results depend on the processing

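Between letters, the count of members called was 0 in every fit but the replicate block, and leaving out each sample in turn left it at 0 to 0. With the number as a replicate block, G against A had 4 members called (11.8%, against 1.27% of all genes). G against C had 1 (2.94%, against 0.0359% of all genes), while the other 4 pairs, B against A and C against B among them, had 0. The 4 in G against A were Ccl5, higher by 0.44 (adjusted p = 0.0188 by limma), and Ccl2, Ccl12 and Cxcl11. These 3 had differences of -1.5, -2.59 and -2.51 on the log2 scale (adjusted p = 0.0396, 0.0438 and 0.0415 by limma). All 3 had their highest value in A2. The fit without the block passed none of them with all samples. Without the samples numbered 2, it gave -0.96, -1.83 and -1.92 (adjusted p = 0.371, 0.515 and 0.591 by limma). The 1 in G against C was Ccl5, higher by 0.49 (adjusted p = 0.0422). G is not paired with A or C by label. By correlation, 4 of the 6 same-numbered pairs were over 0.1 in each, and the lowest correlations were -0.05 and 0.03.

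The F test over numbers called 22 to 26 members when each sample was left out in turn. The ranges were 4 to 7 for number 1, 18 to 23 for number 2, 3 to 7 for number 3, 0 to 2 for number 4, 0 to 5 for number 5 and 1 to 7 for number 6. Without A2 and C2, the counts were 13 for number 2, 8 for number 6 and 1 (Cxcl3) for number 4. Array quality weights gave 6 for number 5 and 1 (Cxcl3) for number 4, and without the letter term number 5 had 0. The cause was not tested. Of the named calls, Ccl12 in number 2 had 1.41 without A2 and C2 and lost its call. Without A4 and B4, Ccl28 in number 3 (-1.40, adjusted p = 0.0506) and Cx3cl1 in number 6 (0.29, adjusted p = 0.0695) lost theirs. Without the letter term, Ccl5 and Ccl7 lost their calls in number 3, where 4 members passed, and in number 5. No named call changed direction in any fit. Read depth is unknown, so counting error could not be set for members with values near 0, such as Ccl1, Ccl12 and Ccl28. A test built on raw counts was not run.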
